A study of Homo sapiens with 6 samples.

Results

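Mitochondrial ribosomal protein genes were described across the 6 libraries of an Ago-RIP-seq experiment in the human triple-negative breast cancer line MDA-MB-231. Ago-RIP-seq sequences the RNA that an antibody pulls down together with AGO2, the protein that carries microRNAs to their target mRNAs. The genes were taken as all protein-coding genes with a symbol of MRPL or MRPS followed by a digit and a summed count of at least 200 read pairs over the 4 libraries of mimic-transfected cells. Of 78 such protein-coding genes, 76 reached that minimum, out of 60708 genes in the count tables and 13078 that reached the same minimum. The genes outside it were MRPL53, with 0 read pairs, and MRPL38, with 143, while MRPS24 stood just inside with 294 and MRPL2 came next with 606. Cells had been transfected with a synthetic mimic of miR-99b-5p or a scrambled control at 25 nM and were harvested 18 hours later. Mimic cells gave 2 biological replicates (BR1 and BR2), each with an AGO2-IP library and a flow-through library, which is the RNA that the pull-down left behind. Control cells gave 1 library labelled AGO2-IP and 1 labelled flow-through, so their values have no replicate check. Their fractions were taken from these labels, and a supplementary listing of the study gives both as control replicates with no fraction named. IgG pull-down libraries were not analysed here. Both conditions received an oligonucleotide, all libraries came from this 1 cell line, and no untransfected cells were analysed here.

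The mitochondrial ribosome makes the few respiratory chain proteins that the mitochondrial genome encodes. Its RNAs are transcribed inside the organelle, but all of its proteins are encoded in the nucleus, translated in the cytosol and imported. Many of these proteins descend from those of the bacterial ribosome, and others were added in the mitochondrial lineage, so the genes below are ordered as large subunit with a bacterial counterpart, large subunit specific to mitochondria, and small subunit. Of the 76 genes, 49 encode large-subunit proteins and 26 encode small-subunit proteins. MRPS18A and MRPS30 carry S symbols but belong to the large subunit. MRPS36 is counted apart, since its product is a component of the 2-oxoglutarate dehydrogenase complex of the citric acid cycle.

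Counts on genes ran from 7772149 to 48544756 per library and were at most 8076375 in the control libraries and at least 38022779 in the mimic libraries. Read pairs not counted on a gene were 21.4% to 47.2% of the mimic and 92.3% to 95% of the control libraries, and genes of the mitochondrial genome made up 43.4% of gene counts in the control flow-through against 3.48% in control AGO2-IP and at most 0.125% of a mimic library. Mimic and control libraries thus differed in composition, and this difference and the transfection cannot be told apart. Of the cell line's markers, VIM, CD44, EGFR, FOSL1, AXL and KRT18 lay between 59 and 2729 CPM (gene counts scaled to library size) in every library, and ESR1 and PGR were below 1 CPM in every library. ERBB3 reached 18.1 CPM and CDH1 3.96 CPM, both in the control AGO2-IP. Among markers of other cell types PTPRC, ALB and HBB were at most 1.86 CPM, PECAM1 at most 8.47 CPM and COL1A1 4.63 to 44.1 CPM. The 76 genes together held 0.345% and 0.276% of the gene counts of the mimic AGO2-IP libraries, 0.426% and 0.252% of the mimic flow-through libraries, 0.283% in control AGO2-IP and 0.21% in control flow-through. The shares of the mimic AGO2-IP libraries lay between those of the mimic flow-through libraries. The 95% Wilson interval was widest in the control AGO2-IP, from 0.28% to 0.287%, and such intervals cover counting error only.

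A microRNA recruits AGO2 mainly through its seed, bases 2 to 8. The mature sequence is therefore shown with the seed in capitals, beside the 7-base matches to it found in MRPS23 and MRPS18B. Mature miR-99b-5p is 22 bases long and comes from the plus strand of chromosome 19 (GRCh38.p14, chr19:51692618-51692639, sequence from RefSeq).
hsa-miR-99b-5p, 5′ to 3′, seed in capitals: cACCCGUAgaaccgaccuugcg
MRPS23, 3′ UTR, chr17:57838027-57838033 on the minus strand, match in capitals: aatgctgggatTACGGGTgttagccaccat
MRPS18B, coding sequence, chr6:30622868-30622874 on the plus strand, match in capitals: gtctgcgcccacACGGGTAtcatcttctat
Both strips were read from the canonical GENCODE transcript on GRCh38, and the coordinates are those of the capitals. The letters searched on the sense strand of each transcript were TACGGGT, which pairs with bases 2 to 8, and ACGGGTA, which pairs with bases 2 to 7 and has an A after them. Both hold ACGGGT, so the matches overlap. A 7-base match was present in 3 of the 76 canonical transcripts (3.95%), against 671 of the 11747 protein-coding transcripts tested (5.71%). The 3 genes were MRPS23, MRPS18B and MRPL15, the last with its match in the coding sequence and not shown above. ACGGGT alone was found in 8 of the 76 (10.5%) and in 17.1% of all protein-coding transcripts tested, and TACGGGTA was found in none of the 76. The canonical transcripts of these genes were shorter, with a median of 1242 bases against 3492 over all protein-coding genes tested.

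The 3 genes with a 7-base match had log2 fold changes from 0.14 to 1.86 in mimic cells, and differences between them were not tested. MRPS23, a mitochondria-specific small-subunit protein, lies at chr17:57834781-57850056 on GRCh38 and stood at 168 and 105 CPM in the AGO2-IP and 48 and 27.5 CPM in the flow-through of mimic cells, and at 81.1 and 23.5 CPM in the same fractions of control cells (BR1 first, CPM after TMM normalization over the 6 libraries, as for all levels below). Its AGO2-IP levels were above the flow-through levels in both mimic pairs and in the control pair. Its log2 fold change of AGO2-IP over flow-through in mimic cells was 1.86 ± 0.64 (SE, adjusted p = 0.127), the highest of the 76, and its control log2 ratio was 1.57. MRPS18B, also of the small subunit, stood at 82.1 and 47 CPM in the AGO2-IP and 68.9 and 48.5 CPM in the flow-through of mimic cells, and at 50.4 and 50.6 CPM in the same fractions of control cells. These values overlapped between the fractions, and its log2 fold change was 0.14 ± 0.61 (SE, adjusted p = 0.91). MRPL15, a large-subunit protein with a bacterial counterpart, had a log2 fold change of 0.60 ± 0.67 (SE, adjusted p = 0.607). Against the control AGO2-IP, the log2 ratio of the mimic AGO2-IP was 0.65 for MRPS23, 0.23 for MRPS18B and 0.16 for MRPL15, so none of the 3 reached a log2 ratio of 1.

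Levels were compared between genes as CPM per kilobase of the canonical transcript, averaged over the 6 libraries. The median of the 76 was 19.8 CPM per kb, against 8.78 over all protein-coding genes tested. The highest were MRPL14, a core large-subunit protein, at 179 CPM per kb, MRPL41 at 140.0 and MRPL51 at 128, the last a pair of mitochondria-specific large-subunit proteins. Across single libraries MRPL14 ranged from 98.3 to 273 CPM per kb, MRPL41 from 73.8 to 286 and MRPL51 from 44.6 to 274, so their order was not separated by the spread between libraries. The lowest were MRPL42 at 3.3 CPM per kb, MRPS17 at 2.91 and MRPS24 at 2.54. The canonical transcript of MRPL42 is 15557 bases long, the longest of the 76, and its coding sequence is 429 bases, so its level per kilobase rests on the transcript chosen.

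The mimic AGO2-IP libraries were compared with the mimic flow-through libraries to ask which of these mRNAs were recovered with AGO2. The fold changes spread over a wide range, from 1.86 for MRPS23 to -2.91 for MRPL57 on the log2 scale, and leaned to the flow-through. The median of the 76 was -0.33, against -0.11 over all 13078 genes tested. In 35 of the 76 both AGO2-IP libraries were below both flow-through libraries, where 28.5% of all genes were, and in 15 both were above, where 28.1% of all genes were. A gene was called when its log2 fold change was 1 or more in size and its adjusted p-value did not exceed 0.05, by edgeR's quasi-likelihood test, adjusted after Benjamini-Hochberg over every gene tested. None of the 76 was called, where 0.245% of all genes were called enriched and 0.413% depleted. At an unadjusted p-value under 0.05, 16 of the 76 were lower in the AGO2-IP (background 13.1%) and 3 were higher (background 10.6%). A log2 fold change of 1 or more was seen in 8 of the 76 (background 20%) and of -1 or less in 26 (background 26.9%), and 46 were below 0 (background 53%). With an adjusted p of at most 0.1 in place of 0.05, 9 would pass as depleted (background 3.69%) and 0 as enriched (background 3.05%). In these bulk fractions, fewer molecules bound to AGO2 and a larger pool left in the flow-through cannot be told apart.

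The replicate numbers were taken to pair the fractions, though the labels do not state that a pair comes from 1 lysate. Deviations of same-numbered libraries from their fraction means had r = 0.32 over 13078 genes and -0.31 over the 76. With the replicate as a block 11 of the 76 were called depleted (background 5.08%) and 0 enriched (background 4.6%). These were MRPL12, MRPL30, MRPL34, MRPL36, MRPL37, MRPL40, MRPL52, MRPL54, MRPL57, MRPS12 and MRPS18C. DESeq2 without the block called 14 depleted (background 8.85%) and 1, MRPS23, enriched (background 7.02%). Over the 58 genes with at least 200 read pairs in each mimic library, 6 were depleted (background 4.25%) and 0 enriched (background 2.44%). Of the genes that the block called, MRPL30 and MRPL40 were named after their values were seen. Calls also turned on single libraries. Without the BR1 flow-through, 17 were depleted (background 18.5%) and 14 enriched (background 18.8%), and without the BR2 flow-through 10 were depleted (background 4.21%) and 0 enriched (background 2.89%). Without the BR1 AGO2-IP 0 were called (background 0.0994% enriched and 0.168% depleted), as without the BR2 AGO2-IP (background 0.0153% and 0.161%). In each of these fits 1 fraction has a single library, which is assumed to vary like the pair of the other fraction, the only source of the spread. The median log2 difference of AGO2-IP over flow-through was -0.68 within BR1 and -0.19 within BR2, against -0.029 and -0.0067 over all genes tested. Both pairs had the same sign in 53 of the 76 (69.7%) and in 71.1% of all genes.

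**Figure D1:**
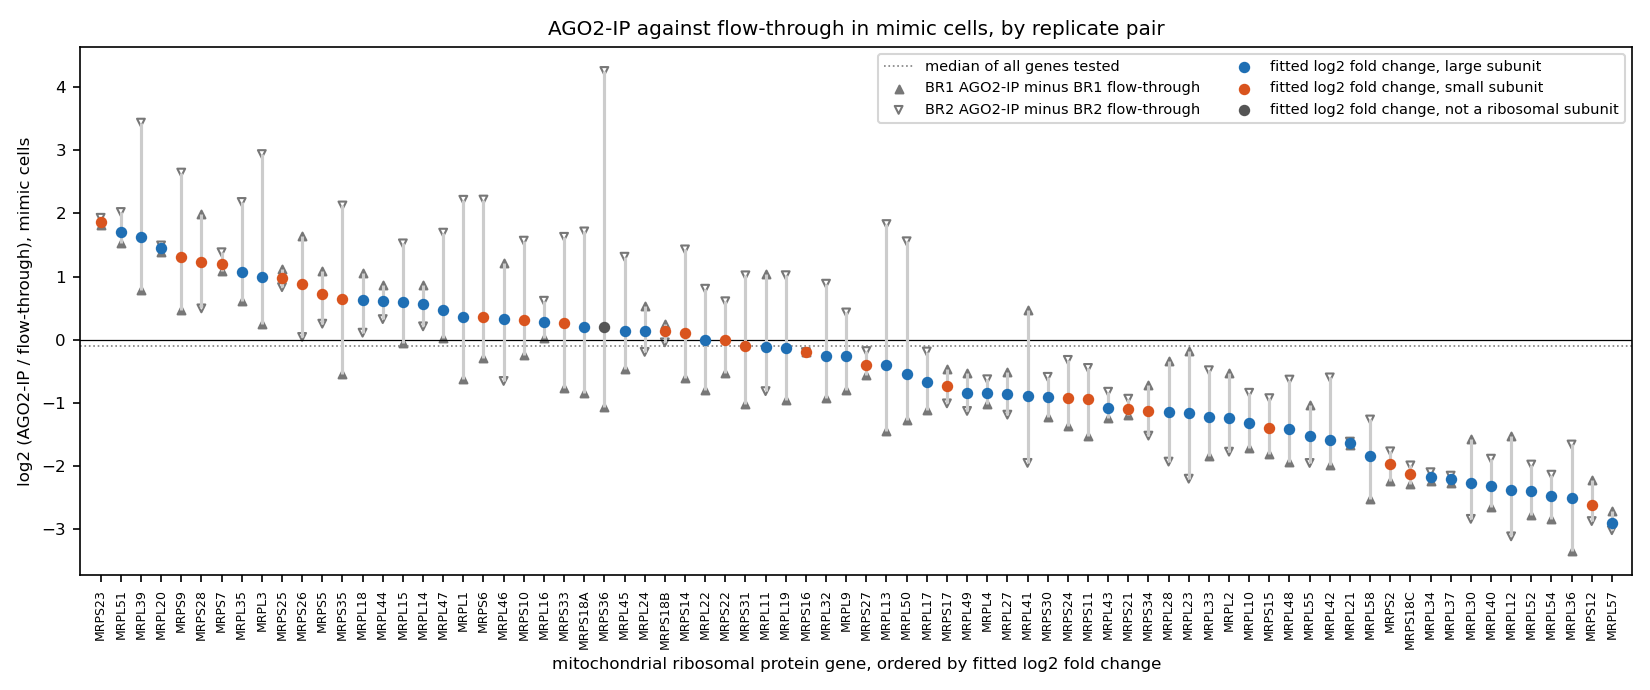
Each of the 76 genes is placed on the x axis by its fitted log2 fold change of AGO2-IP over flow-through in mimic cells (filled circles, coloured by subunit, on a log2 y axis), with the difference within BR1 and within BR2 as triangles joined by a grey line. The genes run from 1.86 (MRPS23) to -2.91 (MRPL57), and the pairs lie furthest apart at MRPS36, -1.08 in BR1 and 4.26 in BR2.

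Among the 30 large-subunit proteins with a bacterial counterpart, the median log2 fold change was -0.33, over a range of -2.52 to 1.45. Of the 30, 6 had an unadjusted p-value under 0.05 on the flow-through side (background 13.1%) and 1 on the AGO2-IP side (background 10.6%). With the replicate block 4 were called depleted (background 5.08%). The log2 fold changes of the stalk proteins named here ran from -2.39 to 0.35, and differences between them were not tested. MRPL12, which forms the flexible stalk that contacts translation factors, stood at 7.01 and 4.74 CPM in the AGO2-IP and 20.2 and 41.6 CPM in the flow-through of mimic cells, and at 7.85 and 17.1 CPM in the same fractions of control cells. Both AGO2-IP levels in mimic cells lay below both flow-through levels, and the control pair had the same order. Its log2 fold change was -2.39 ± 0.72 (SE, adjusted p = 0.0979), with an adjusted p of 0.0386 under the replicate block. MRPL10, which anchors that stalk, had a log2 fold change of -1.33 ± 0.66 (SE, adjusted p = 0.241), also with no overlap between the fractions of mimic cells. MRPL1, of the opposite stalk, stood at 13.9 and 18.7 CPM in the AGO2-IP and 21.5 and 4 CPM in the flow-through of mimic cells, and at 7.65 and 10.4 CPM in the same fractions of control cells. Its mimic AGO2-IP levels lay between the flow-through levels, with a log2 fold change of 0.35 ± 0.82 (SE, adjusted p = 0.815).

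Core proteins of the large subunit went both ways. MRPL3, a core protein near the catalytic centre, stood at 83.2 and 76.9 CPM in the AGO2-IP and 70.4 and 9.97 CPM in the flow-through of mimic cells, and at 49 and 45.2 CPM in the same fractions of control cells, and its log2 fold change was 0.99 ± 0.81 (SE, adjusted p = 0.466). Only the BR2 flow-through was far from the other mimic libraries. MRPL2, another core protein, was at low levels of 2.15 and 1.75 CPM in the AGO2-IP and 3.13 and 6.12 CPM in the flow-through of mimic cells, and at 5.48 and 8.11 CPM in the same fractions of control cells, with a log2 fold change of -1.24 ± 0.80 (SE, adjusted p = 0.355). MRPL16 had a log2 fold change of 0.27 ± 0.62 (SE, adjusted p = 0.813) and MRPL4 one of -0.85 ± 0.61 (SE, adjusted p = 0.406), and 60.6% of the read pairs of MRPL4 that either strand column counted were absent from the unstranded counts of the mimic libraries. MRPL20, an RNA-binding protein of the large subunit, had the highest fold change of this group and stood at 111 and 136 CPM in the AGO2-IP and 42.4 and 48.3 CPM in the flow-through of mimic cells, and at 48.8 and 27.4 CPM in the same fractions of control cells. Both its mimic AGO2-IP levels were above both flow-through levels, and its log2 fold change was 1.45 ± 0.59 (SE, adjusted p = 0.174). MRPL35 followed at 1.08 ± 0.73 (SE, adjusted p = 0.382).

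The shortest coding sequences of this group belong to MRPL33, MRPL34 and MRPL36, with 198, 279 and 312 bases. MRPL36, at chr5:1798385-1801366, stood at 3.11 and 5.6 CPM in the AGO2-IP and 32.1 and 17.8 CPM in the flow-through of mimic cells, and at 6.3 and 37.1 CPM in the same fractions of control cells. Every AGO2-IP library was below every flow-through library, with a log2 fold change of -2.52 ± 0.74 (SE, adjusted p = 0.0939) and an adjusted p of 0.025 under the block. MRPL34 had a log2 fold change of -2.19 ± 0.65 (SE, adjusted p = 0.097) and an adjusted p of 0.0463 under the block. MRPL33 stood at 12.8 and 17 CPM in the AGO2-IP and 46.3 and 23.8 CPM in the flow-through of mimic cells, and at 4.13 and 31.2 CPM in the same fractions of control cells, with a log2 fold change of -1.23 ± 0.67 (SE, adjusted p = 0.279). All 3 were below the flow-through in both mimic pairs and in the control pair. MRPL32, a zinc-binding protein, had a log2 fold change of -0.26 ± 0.76 (SE, adjusted p = 0.861), and MRPL23, a protein at the exit of the peptide tunnel, one of -1.17 ± 0.75 (SE, adjusted p = 0.356).

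The 19 large-subunit proteins specific to mitochondria had the lowest median of the 4 groups, -0.91. Of the 19, 6 had an unadjusted p-value under 0.05 on the flow-through side (background 13.1%) and 1 on the other (background 10.6%). With the replicate block 5 were called depleted (background 5.08%). MRPL57, at chr13:21176658-21179084, stood at 7.35 and 10.2 CPM in the AGO2-IP and 48.5 and 83.5 CPM in the flow-through of mimic cells, and at 11.7 and 52.5 CPM in the same fractions of control cells. The levels of its 3 AGO2-IP libraries were below those of its 3 flow-through libraries, and its log2 fold change was -2.91 ± 0.67 (SE, adjusted p = 0.0625), with 0.00765 under the block. MRPL52 stood at 9.62 and 11.4 CPM in the AGO2-IP and 66.1 and 45 CPM in the flow-through of mimic cells, and at 13.2 and 49.2 CPM in the same fractions of control cells, with a log2 fold change of -2.40 ± 0.65 (SE, adjusted p = 0.082). MRPL54 was at -2.48 ± 0.70 (SE, adjusted p = 0.0889) and MRPL37 at -2.21 ± 0.61 (SE, adjusted p = 0.0842). The coding sequence of MRPL37 is 1272 bases, against a median of 588 over the 76. MRPL58, a peptidyl-tRNA hydrolase that frees stalled ribosomes and is also built into the large subunit, had a log2 fold change of -1.84 ± 0.68 (SE, adjusted p = 0.145).

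At the other end of this group, MRPL51 stood at 246 and 163 CPM in the AGO2-IP and 85.6 and 40.1 CPM in the flow-through of mimic cells, and at 98.3 and 55.6 CPM in the same fractions of control cells. Its AGO2-IP levels exceeded the flow-through levels in all pairs, and its log2 fold change was 1.70 ± 0.65 (SE, adjusted p = 0.152). MRPL39 stood at 49.3 and 54.8 CPM in the AGO2-IP and 28.5 and 5.01 CPM in the flow-through of mimic cells, and at 17.4 and 15 CPM in the same fractions of control cells, with a log2 fold change of 1.63 ± 0.80 (SE, adjusted p = 0.238). In this gene the BR2 flow-through was far below the BR1 flow-through, and the AGO2-IP levels were close to each other. MRPL42 stood at 37.6 and 24.4 CPM in the AGO2-IP and 149 and 37 CPM in the flow-through of mimic cells, and at 8.99 and 51.1 CPM in the same fractions of control cells, and its log2 fold change was -1.59 ± 0.74 (SE, adjusted p = 0.218). MRPS30, the large-subunit protein with an S symbol, had a log2 fold change of -0.91 ± 0.61 (SE, adjusted p = 0.375), and MRPL46 and MRPS18A had 0.32 and 0.20.

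The small-subunit genes were read in the same way. The 16 with a bacterial counterpart had a median log2 fold change of -0.46. At an unadjusted p-value under 0.05, 4 were on the flow-through side (background 13.1%) and 0 on the AGO2-IP side (background 10.6%). With the block 2 were called depleted (background 5.08%). The 10 specific to mitochondria had a median of 0.20, and the same 3 counts were 0, 1 and 0. Within BR1 the median difference was negative in both groups, and within BR2 it was positive only in the mitochondria-specific group. The difference between the groups was not tested. MRPS12, a protein of the decoding centre at chr19:38930944-38933168, stood at 11.7 and 14.9 CPM in the AGO2-IP and 54.8 and 109.7 CPM in the flow-through of mimic cells, and at 20.4 and 53.5 CPM in the same fractions of control cells. All AGO2-IP levels lay below all flow-through levels, with a log2 fold change of -2.63 ± 0.66 (SE, adjusted p = 0.0728) and 0.0175 under the block. MRPS18C had a log2 fold change of -2.14 ± 0.75 (SE, adjusted p = 0.134), from 104 and 122 read pairs in the AGO2-IP and 588 and 526 in the flow-through, and it came to -0.94 with both strand columns summed. MRPS7, a protein of the head of the small subunit, stood at 134 and 95 CPM in the AGO2-IP and 63 and 36.4 CPM in the flow-through of mimic cells, and at 103 and 34.7 CPM in the same fractions of control cells. It was higher in the AGO2-IP of every pair, with a log2 fold change of 1.20 ± 0.62 (SE, adjusted p = 0.256).

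MRPS5, which lies near the mRNA entrance, stood at 113 and 66.8 CPM in the AGO2-IP and 53.2 and 56.1 CPM in the flow-through of mimic cells, and at 43.3 and 62.5 CPM in the same fractions of control cells. The mimic fractions did not overlap, the control pair had the opposite order, and the log2 fold change was 0.72 ± 0.60 (SE, adjusted p = 0.478). MRPS9 had 1.31 ± 0.82 (SE, adjusted p = 0.343) and MRPS28 1.23 ± 0.77 (SE, adjusted p = 0.339), both from levels of at most 11.4 CPM in a mimic library. MRPS26, specific to mitochondria, had 0.88 ± 0.63 (SE, adjusted p = 0.406). MRPS17 and MRPS24, at low levels, had -0.73 and -0.93, and MRPS6 and MRPS33 had 0.35 and 0.27. For MRPS36, the citric acid cycle component, the mimic AGO2-IP levels of 11.8 and 17.8 CPM lay between the flow-through levels of 25 in BR1 and 0.891 in BR2, so its log2 fold change of 0.19 ± 1.09 (SE, adjusted p = 0.93) averaged pairs of opposite sign.

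**Figure D2:**
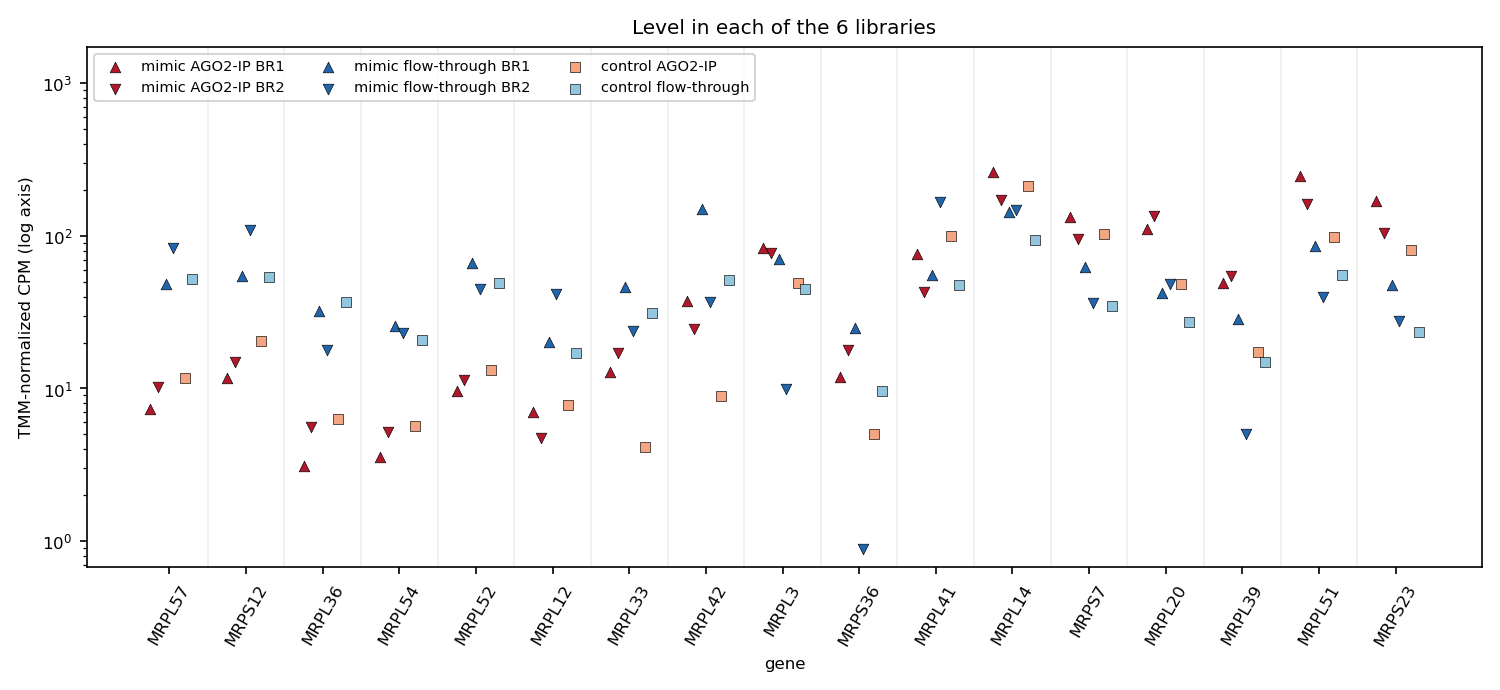
Levels of 17 genes (x axis) in each of the 6 libraries (y axis, TMM-normalized CPM on a log axis, with red for mimic AGO2-IP, blue for mimic flow-through, pale squares for control). From MRPL57 to MRPL12 on the left every AGO2-IP point lies below every flow-through point of its condition, from MRPS7 to MRPS23 on the right the mimic AGO2-IP points lie above the mimic flow-through points, and the lowest point is the BR2 flow-through of MRPS36 at 0.891 CPM.

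The same fraction difference was read in control cells from 1 library each, as a log2 ratio of normalized CPM for genes with at least 200 read pairs over both libraries, without a test. Of the 76 genes, 55 had a ratio, and their median was -0.88 against 0.010 over 8245 genes. Below 0 were 42 of the 55 (background 49.6%). At most -1 were 23 of the 55 (background 18.1%) and at least 1 were 3 (background 15.9%). The 3 were MRPS23 at 1.57, MRPS26 at 1.43 and MRPS7 at 1.36. The lowest were MRPL33 at -3.04, from 40 and 181 read pairs, MRPL36 at -2.71 and MRPL42 at -2.68. The level of this ratio depends on the scaling, since with library size alone, which counts the mitochondrially encoded reads of the flow-through, the median of the genes was 0.020 and that of all genes 0.91. This scaling moves all genes alike, and under it 8 of the 55 were at most -1 (background 4.92%) and 12 at least 1 (background 46.6%). By subunit the control medians were -0.88 for 39 large-subunit genes and -0.88 for 16 small-subunit genes, and the mimic log2 fold changes of the same genes had medians of -0.85 and 0.28. For these 16 small-subunit genes the median difference was negative within BR1 and positive within BR2. The contrast between the subunits was not tested. Over all 49 and 26 genes the mimic medians were -0.85 and 0.045.

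Gene by gene, the control ratio and the BR1 difference ran closely together. Across the 55 genes Pearson's r was 0.87 between the control ratio and the BR1 difference and 0.38 between the control ratio and the BR2 difference. Over 8106 protein-coding genes the values were 0.81 and 0.33, so the contrast between the pairs was not particular to these genes. The points share transcript length, base composition and annotation, the compared libraries are different ones, and genes are not independent replicates. The sign of the mimic fold change and of the control ratio was the same in 41 of the 55 genes (74.5%) and in 68.8% of all genes with both values. Whether the fraction difference itself differed between mimic and control cells was tested as an interaction over the 6 libraries in edgeR, with the spread taken from the mimic replicates. It was called for 0 of 55 genes and 0% of 8225 genes, with 0 of the 55 at an unadjusted p-value under 0.05 (background 1.01%) and 0 by DESeq2 (background 0.0122%). Without the BR1 flow-through, 9 were called higher in mimic cells (background 10.2%) and 1, MRPL41, lower (background 7.76%). The 9 were MRPL3, MRPL13, MRPL35, MRPL39, MRPL47, MRPS6, MRPS10, MRPS33 and MRPS35. Of these, MRPL13, MRPL47, MRPS10 and MRPS35 were named after their values were seen.

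**Figure D3:**
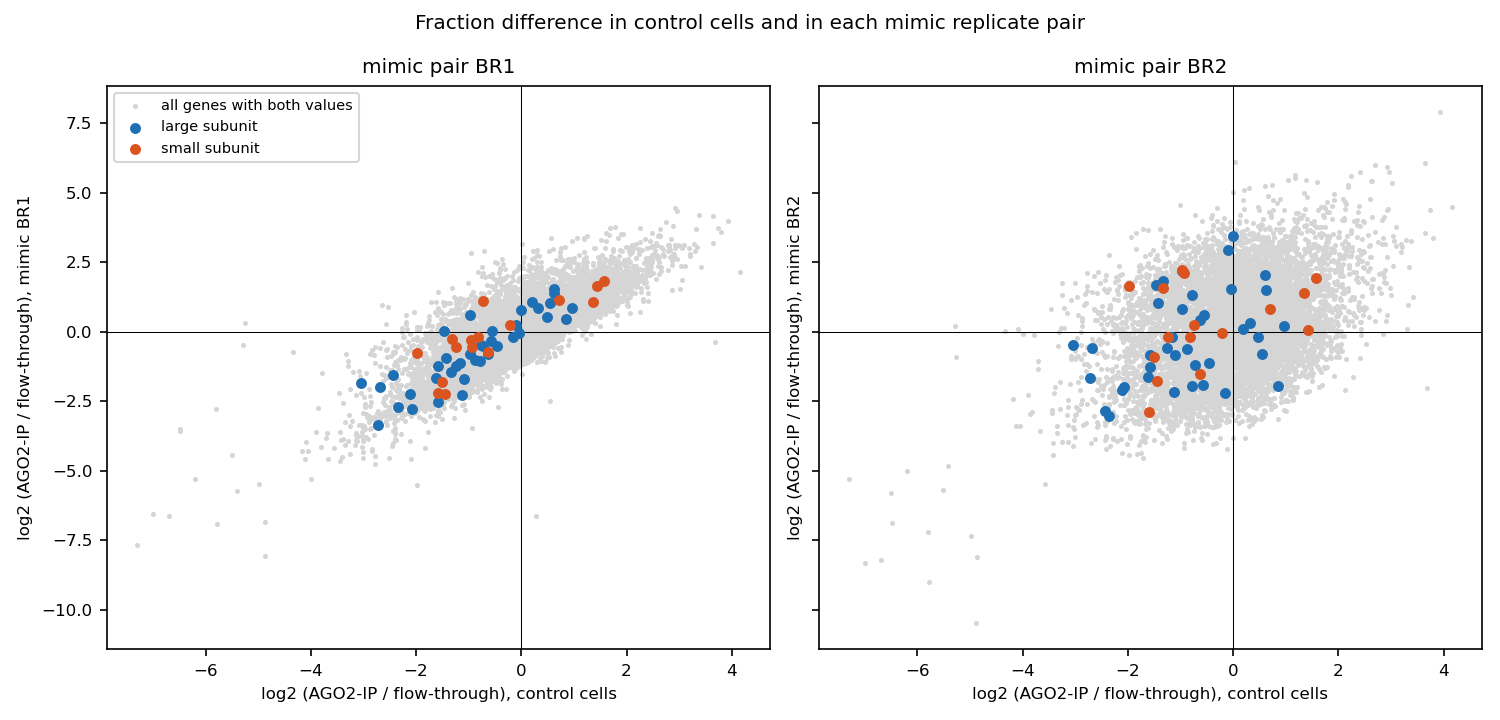
Log2 difference of AGO2-IP over flow-through in control cells (x axis) against that in mimic BR1 (left, y axis) and mimic BR2 (right, y axis), for the 55 genes with both values (coloured by subunit) and all genes (grey). The coloured points follow a narrow band in BR1 (r = 0.87) and scatter in BR2 (r = 0.38).

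Setting the mimic AGO2-IP against the control AGO2-IP compares the mRNAs recovered with AGO2 between mimic and control cells. It was read as a ratio without a test, since there is 1 control library. Changes in AGO2 association, in mRNA level and in library composition cannot be told apart in this ratio. The median log2 ratio was 0.36 over 75 of the 76 genes, against 0.020 over 11467 genes. A log2 ratio of at least 1 was seen in 14 genes (background 17.3%), 12 of them in each mimic library taken alone (background 12.2%), and one of at most -1 in 2 (background 17.4%). With the GC trend removed, 5 were at least 1 (background 11.2%) and 1 at most -1 (background 12.9%). The highest were MRPL35 at 1.88 (1.64 and 2.12 by library), MRPL33 at 1.76 and MRPL42 at 1.68. The lowest were MRPL23 at -1.71, MRPL2 at -1.53 and MRPL37 at -0.98. By base composition the genes below 45% GC had a median of 0.98 (n = 26), those from 45% to 55% one of 0.22 (n = 33) and those of 55% or more one of -0.54 (n = 16). Medians of all genes in the same GC classes are not given here, so this order is not shown to be particular to these genes.

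Setting the mimic flow-through against the control flow-through makes the same comparison for the RNA left behind, again without a test. The median log2 ratio of mimic over control flow-through was 0.086 over all 76, against 0.050 over 12254 genes, and 3 genes were at least 1 (background 10%) and 4 at most -1 (background 10.2%). The 3 were MRPS18C at 2.54, MRPS28 at 1.65 and MRPL46 at 1.45, with 11, 6 and 9 read pairs in the control flow-through. For MRPS18C the unstranded counts lacked 88.9% of the read pairs of the strand columns in the control libraries and 71.9% in the mimic libraries. The 4 were MRPS33 at -1.37, MRPL32 at -1.24, MRPS6 at -1.07 and MRPS36 at -1.02, and none of them was at most -1 against both mimic libraries. The comparisons in this and the previous paragraph use control libraries that the control ratio also uses. Without the BR1 flow-through 7 were at least 1 (background 20.6%) and 19 at most -1 (background 20.7%). With library size alone 14 were at least 1 (background 25.9%) and 0 at most -1 (background 4.17%), and with genes of the mitochondrial genome left out of library size 3 (background 4.33%) and 11 (background 19%). At least 1 against both mimic libraries were the same 3 (background 2.8%), and at most -1 against both were 0 (background 3.35%). Without the BR1 flow-through the median was -0.25, and without the BR2 flow-through 0.19.

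The mimic flow-through replicates stood apart, and in these genes the difference followed base composition. The genes with the lowest and the highest GC content show the range, with the central 60 bases of each coding sequence printed with G and C in capitals.
MRPS36: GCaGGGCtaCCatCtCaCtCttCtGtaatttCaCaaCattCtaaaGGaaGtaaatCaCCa
MRPL41: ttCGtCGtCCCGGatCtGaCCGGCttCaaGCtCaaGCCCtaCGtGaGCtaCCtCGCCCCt
These stretches hold 24 and 37 G or C, and the whole canonical transcripts were 34.8% and 66.7% GC. MRPS36 had 1417 read pairs in the BR1 flow-through and 37 in the BR2 flow-through. MRPL41 had 3138 and 6920, a difference in the opposite direction. In the AGO2-IP, MRPS36 had 589 and 692 read pairs and MRPL41 3803 and 1665.

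Across the 76 genes, the log2 difference of BR2 over BR1 flow-through correlated with transcript GC content at 0.65 (Pearson's r) and 0.64 (Spearman's rho), against 0.73 and 0.75 over 11747 protein-coding genes. For the AGO2-IP libraries the same r was -0.27 over the 76 and 0.024 over all. Both are descriptions across genes of the same libraries. Of the 26 genes below 45% GC, 21 were lower in the BR2 flow-through, and of the 17 of 55% GC or more, 12 were higher. At least 2-fold lower in BR2 were 23 genes (30.3%, against 26.3% of protein-coding genes), and at least 2-fold higher 4 (5.26%, against 23.2%). The AGO2-IP libraries were at least 2-fold apart in 2 genes (2.63%, against 15.9% of protein-coding genes). The SD of the difference over the 76 was 0.52 for the AGO2-IP and 1.23 for the flow-through, where it was 0.84 and 1.44 over all genes tested. The fraction difference within BR1 had an r of -0.089 with GC content over the 76, and that within BR2 one of -0.63.

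With each library's trend on GC content removed, the median fold change of the 76 was -0.42, and 8 were called depleted (background 2.61%) and 0 enriched (background 3.58%). With the block as well, 17 were depleted (background 12.5%) and 7 enriched (background 13.9%). The 7 were MRPL14, MRPL20, MRPL39, MRPL51, MRPS7, MRPS23 and MRPS26. Of the 11 genes that the block called depleted, MRPL30, MRPL36, MRPL40, MRPL52, MRPL57 and MRPS18C were also called with the GC trend removed and no block.

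**Figure D4:**
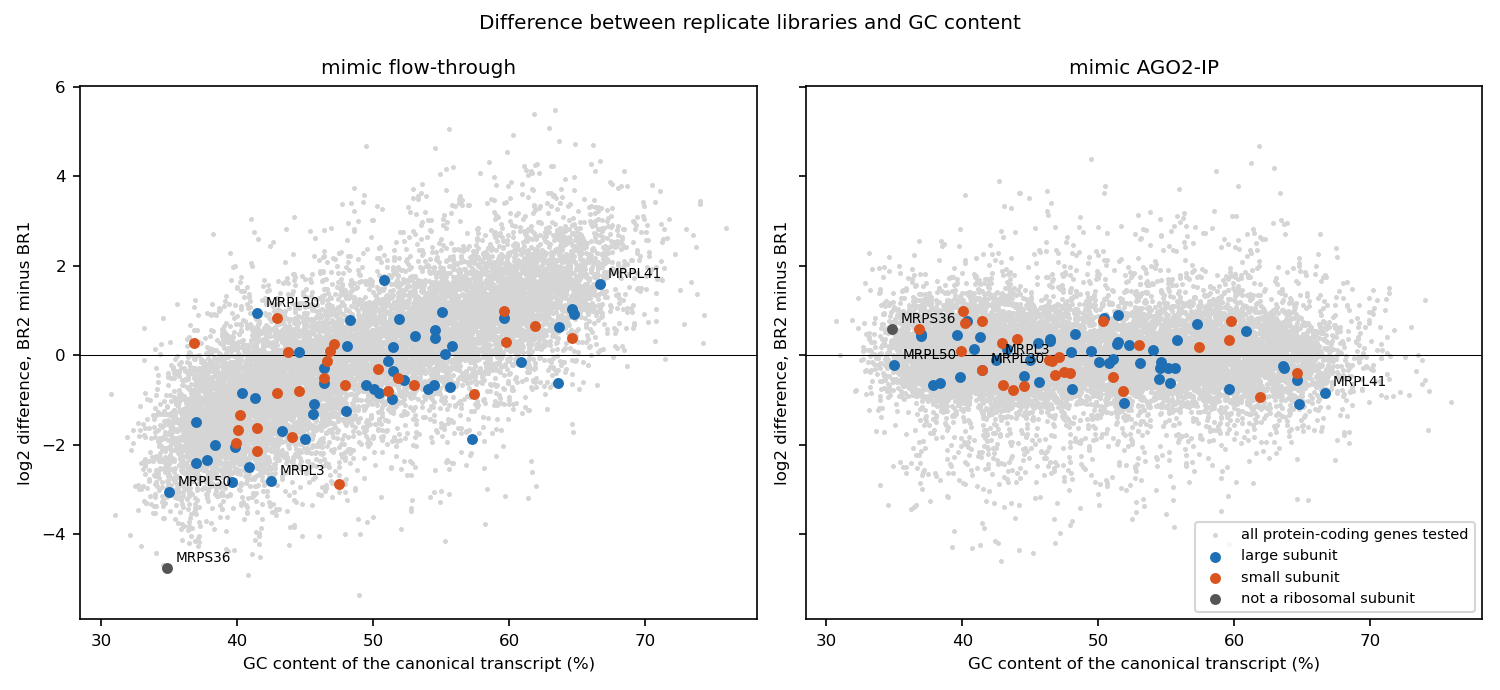
Log2 difference of BR2 minus BR1 (y axis) against the GC content of the canonical transcript in percent (x axis), for the mimic flow-through (left) and the mimic AGO2-IP (right), with the 76 genes coloured by subunit over all protein-coding genes tested in grey. In the flow-through the points climb with GC content, with MRPS36 at -4.75 and MRPL41 at 1.59, while in the AGO2-IP they stay between -1.09 and 0.998.

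Mitochondrial ribosomal proteins are short, with a median coding length of 588 bases against 1443 over all protein-coding genes tested, and the fold change varied with coding length in both. The 26 genes under 500 coding bases had a median log2 fold change of -1.09, against -0.89 for the 936 protein-coding genes of that length. From 500 to below 1000 bases the medians were -0.12 (n = 41) and -0.38 (n = 2582), and from 1000 bases -0.013 (n = 9) and 0.12 (n = 8229). Both AGO2-IP libraries of mimic cells were below both flow-through libraries in 16 of the 26 short genes (61.5%, against 44.1% of all short protein-coding genes), in 39% against 36.9% of the middle class and in 33.3% against 22.5% of the long class. The control medians were -1.58 over 19 of the short genes against -1.12 over 646. In the middle class they were -0.70 over 30 against -0.35 over 1778, and in the long class -0.93 over 6 against 0.18 over 5682. The control median of the long class thus lay below that of the middle class in these genes. Across the 76, r between the fold change and log2 coding length was 0.30, against 0.21 over all protein-coding genes. With the trend on transcript length removed, the median of the 76 was -0.070, and with the trend on coding length removed it was 0.034, with 0 called under the former (background 0.0153% enriched and 0.0459% depleted) and 0 under the latter (background 0.765% and 0.466%).

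Other genes of the same machinery were read from fixed lists. The 77 cytosolic ribosomal protein genes lay further to the flow-through, with a median log2 fold change of -1.76 and a control median of -2.03 over 75. Of them 6 were called depleted (background 0.413%) and 0 enriched (background 0.245%). In 56 both AGO2-IP libraries were below both flow-through libraries (background 28.5%). Their median coding length was 456 bases. The 76 nuclear-encoded respiratory chain subunits had a median of -0.79 and a median coding length of 426 bases. Of them 1, NDUFB11 of complex I, was called depleted (background 0.413%) and 0 enriched (background 0.245%). 15 mitochondrial translation factors had a median of 0.50 and 27 assembly factors one of -0.098, with 0 called in either list. At an unadjusted p-value under 0.05, 3 and 3 were on the AGO2-IP side (background 10.6%) and 0 and 6 on the other (background 13.1%). Their median coding lengths were 1170 and 1155 bases. The other called genes, all cytosolic ribosomal, were RPS21, FAU, RPLP2, RPSA, RPL10 and RPLP1. Of the 5 mitoribosomal proteins without an MRP symbol, none was called, and their log2 fold changes ran from -0.98 for AURKAIP1 to 1.64 for CHCHD1. The differences between these lists were not tested.

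**Figure D5:**
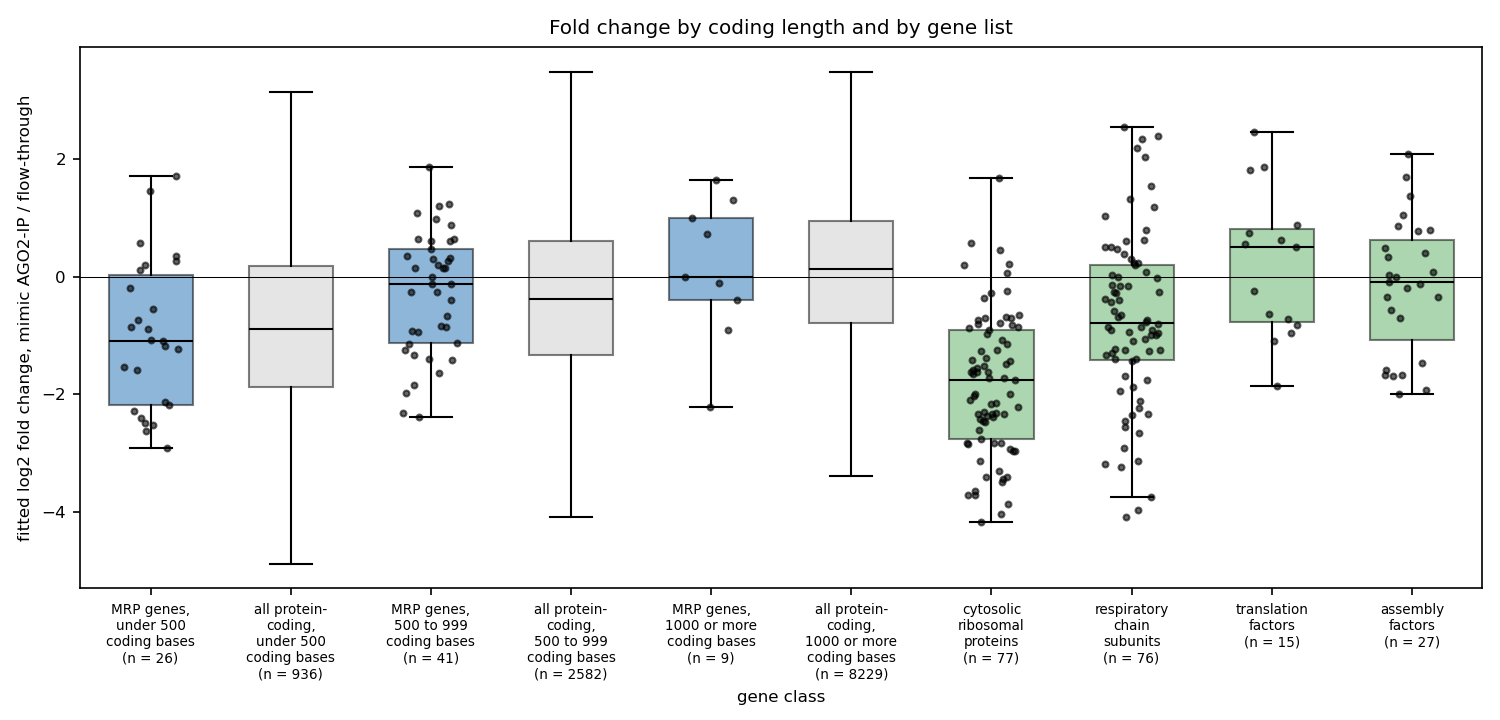
Fitted log2 fold change of mimic AGO2-IP over flow-through (y axis) by gene class (x axis, n under each label), with boxes from the lower to the upper quartile, a line at the median, whiskers of the usual box-plot length and single genes as points except in the grey boxes. Within each coding-length class the blue boxes of the mitochondrial ribosomal proteins sit beside the grey boxes of all protein-coding genes, at medians of -1.09 and -0.89 in the shortest, and the cytosolic ribosomal proteins sit lowest at -1.76.

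Some of these genes, as of all protein-coding genes, share their locus with another gene. Unstranded counting leaves out read pairs that fall on genes of both strands, and 20 of the 76 (26.3%, against 22.7% of protein-coding genes) lost at least 10% of the mimic read pairs that the strand columns hold. Of these, MRPS34 and MRPL9 were named after their values were seen. The loss was largest for MRPS18C, at 71.9%, and 60.6% for MRPL4, 59.1% for MRPS18A, 57.7% for MRPS34, 52.7% for MRPL9 and 50.3% for MRPS9. With both strand columns summed, MRPS18A turned from 0.20 to -0.41. In those columns reads of the gene and of its antisense neighbour cannot be told apart, and column 3 held 49% to 55.1% of the strand counts of a library. The annotation also holds 86 genes with such symbols that are not protein-coding, pseudogene copies among them, and read pairs that fit more than 1 place were not counted.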

How the data were processed

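The members and gene lists were chosen with earlier results of these data known. Per the labels and the study's methods, RNA was prepared with MGIEasy kits and sequenced in pairs on DNBSEQ-T7, and the authors ran FastQC 0.11.9, cutadapt 3.5 and STAR 2.7.11b (2-pass, quant mode) on GRCh38 with an Ensembl annotation whose release is not given in the sources used here. The deposited values are raw counts of read pairs per gene, whole numbers without normalization. Column 2, the unstranded counts, was used, and columns 3 and 4 (each strand) and library totals served as alternatives. Rows that name no gene were left out. They held 21.4% to 95% of read pairs. Of 60708 identifiers, 60463 were named through GENCODE release 44.

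Mimic AGO2-IP and flow-through (n = 2 each) were compared with edgeR 4.0.16 (R 4.3.3, glmQLFit, glmQLFTest, TMM) over genes with at least 200 summed counts, without a replicate term. The SE is the log2 fold change divided by the square root of F. Comparisons with 1 control library are log2 ratios of TMM CPM (prior count 2) without a test, and the interaction used all 6 libraries. The labels give an AGO2-IP and a flow-through library the same replicate number, which was taken as a pair. That both come from 1 lysate is not stated. Deviations of same-numbered libraries had r = 0.32 over 13078 genes and -0.31 over the 76. The study's methods describe the replicates as independent biological ones. The script was tested on simulated data.

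Alternatives were DESeq2 1.42.0, its size factors, library size alone, each strand column, other filters, protein-coding genes only, GC and length trends removed (lowess, span 0.2), the block, all 6 libraries, a prior count of 0.5 and each replicate left out. The coding length trend and the summed strand columns were added after seeing the data. Genes were named by rule: the 5 highest and 5 lowest fold changes, the 3 highest and lowest of each ratio and of the level per kilobase, 7-base seed matches, and a list of roles (stalk and core proteins, decoding centre, the MRPS18 family, MRPS30, MRPL58, MRPS36 and MRPL33, MRPL34 and MRPL36). Genes outside this rule are marked where they appear.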

Additional observations from a re-analysis of the deposited data

Results flagged for a closer look

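MRPL35, MRPL3 and MRPS5 were picked out because their AGO2-IP levels exceeded the flow-through levels in both mimic pairs, whichever pair was taken, and their control log2 ratio was below 0. The mimic log2 fold change was 1.08 for MRPL35, 0.99 for MRPL3 and 0.72 for MRPS5, and the control log2 ratios were -0.97, -0.092 and -0.73. Such opposite orders were seen in 3 of 55 members and in 11.6% of 8225 genes. In edgeR's interaction test over all genes the differences were 2.0, 1.02 and 1.41, with an adjusted p of 0.974 for each, so none passed. The control order of MRPL3 and MRPS5 depends on the scaling, since with library size alone the control log2 ratios were -0.078 for MRPL35, 0.81 for MRPL3 and 0.17 for MRPS5. On the scale of all 6 libraries MRPL3 had 49 CPM in the control AGO2-IP and 45.2 CPM in the control flow-through. Whether the difference holds between replicated control libraries was not tested, since there is 1 control library per fraction. No group held 4 or more libraries, so no library was examined as an outlier within its group.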

How the results depend on the processing

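For mimic AGO2-IP over flow-through 0 of the 76 were enriched and 0 depleted (all genes 0.245% and 0.413%). These counts became 0 and 11 with the replicate block (all genes 4.6% and 5.08%) and 1 and 14 by DESeq2 (all genes 7.02% and 8.85%). With the GC trend removed they were 0 and 8 (all genes 3.58% and 2.61%), and with that trend and the block 7 and 17 (all genes 13.9% and 12.5%). With at least 200 counts in each library they were 0 and 6 (all genes 2.44% and 4.25%). With 1 library left out the calls changed most without the BR1 flow-through, as given above beside the shares of all genes. The other alternatives gave 0. The median of the 76 ranged from -0.65 to -0.016 over the other settings and was 0.034 with the coding length trend removed. The interaction stayed at 0 calls except 0 to 9 higher and 0 to 1 lower with 1 library left out, the BR1 flow-through for both highest counts, and its median moved from 0.23 to -0.60 with library size alone (all genes 0.0057 to -0.85). That scaling moved the control ratio's median to 0.020 (all genes 0.91) and the flow-through ratio's to 0.55 (all genes 0.52), and leaving out genes of the mitochondrial genome moved the latter to -0.27 (all genes -0.31), since scaling moves every gene alike. The cause of the other changes was not tested.

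Of 782 single-gene values under 19 alternatives for 42 named genes, 670 kept their direction and stayed uncalled, 79 kept it and became called, and 33 reversed. Reversed were MRPL23 (-1.17, then 0.10 with the GC trend removed, 0.052 with the GC trend removed and the block), MRPS33 (0.27, then -0.23 with the GC trend removed, -0.24 with the GC trend removed and the block, -0.33 to 1.30 without 1 library), MRPL32 (-0.26, then 0.21 with the coding length trend removed, 0.47 with the length trend removed, 0.012 without a count filter, -0.87 to 0.83 without 1 library), MRPS6 (0.35, then -0.47 to 2.42 without 1 library). Also reversed were MRPL46 (0.32, then -0.30 to 0.79 without 1 library), MRPL41 (-0.90, then 0.68 with the GC trend removed, 0.63 with the GC trend removed and the block, 0.072 with the length trend removed, -1.48 to 0.098 without 1 library), MRPS18B (0.14, then -0.044 with 200 counts in each library, -0.32 to 0.46 without 1 library), MRPL1 (0.35, then -0.20 with the GC trend removed, -0.15 with the GC trend removed and the block, -0.40 to 2.03 without 1 library). The rest were MRPL16 (0.27, then -0.063 to 0.69 without 1 library), MRPS18A (0.20, then -0.52 on column 3, -0.39 on column 4, -0.41 with both strand columns summed, -0.46 to 1.42 without 1 library), MRPS36 (0.19, then -0.0076 with library size alone, -0.76 to 4.05 without 1 library), MRPL4 (-0.85, then 0.35 with the GC trend removed and the block). None of these genes was called without an alternative. The control ratios rested on 40 or more read pairs in the AGO2-IP and 70 or more in the flow-through, and the 21 genes below 200 over both had none.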
